A study of Mus musculus with 3 samples.

Results

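RNA levels of 10 genes of the BCL2 family were examined in 3 bone marrow libraries. The genes were the survival genes Bcl2, Bcl2l1, Mcl1, Bcl2a1a, Bcl2a1b and Bcl2a1d and the death genes Bcl2l11, Bad, Bid and Bak1, taken by symbol from a fixed list among the 16742 genes listed in any library. All 10 were listed in at least one library, with 9 listed in Control and 8 each in TR1 and TR9, and a gene that a library did not list was taken as 0 there. Control came from lin- bone marrow of wild type C57BL/6 mice, that is, from cells that remain when those bearing mature lineage markers are depleted. TR1 and TR9 came from sorted GFP+ bone marrow cells of leukemia mice that carried TBLR1-RARa (TR), a fusion of the corepressor component TBLR1 with the retinoic acid receptor alpha. TR was delivered by a retroviral vector with GFP on the same transcript into lin- cells of C57BL/6 mice, so TR and GFP were present in the sorted cells of both leukemias and absent from Control. Per the labels, all mice were on the C57BL/6 background and aged 6 to 8 weeks, and each library pooled 3 mice. TR1 and TR9 are each named for 1 primary leukemic mouse, and the sorted cells came from the third generation of serial transplants, so each library stands for 1 leukemia passed through several hosts. With 1 library per condition there is no spread between samples, and Control and leukemia cells were also isolated differently (lineage depletion as opposed to a GFP sort), which cannot be told apart from the effect of TR. Per the paper's methods, Control cells came from healthy mice and not from empty-vector recipients. Cytokine culture, retroviral transduction and serial transplantation therefore also cannot be told apart from the effect of TR.

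The BCL2 family sets the threshold for the mitochondrial route of apoptosis. Its survival proteins bind and hold back the effectors BAX and BAK, which otherwise open the outer mitochondrial membrane and let cytochrome c reach the caspases. BH3-only proteins, such as those made from Bcl2l11 (BIM), Bad and Bid, sense stress or loss of growth factors and occupy the survival proteins or switch on the effectors. In the marrow, MCL1 is needed by stem cells and granulocytes, BCL-XL (made from Bcl2l1) by maturing red cells and platelets, and BCL2 by lymphocytes, while BCL2A1 is typical of granulocytes and of cells with active NF-κB.

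Expected counts, which are RSEM's estimates of the reads of each gene, summed to between 5129662 and 5571409 per library. Levels of different genes were compared as FPKM, a count scaled for gene length and library total. A gene was called lower or higher between 2 libraries when an exact Poisson test of the counts passed a false discovery rate of 0.001 over all genes and the log2 ratio of FPKM was at least 1 in size. Such a call compares 2 libraries, not 2 conditions. The intervals beside log2 ratios are 95% exact intervals for counting error only, and they hold no variation between mice. Of the 16282 genes tested between TR1 and Control, 13.0% were called lower and 8.09% higher in TR1. Between TR9 and Control, 10.8% of 16303 genes were called lower and 9.37% higher in TR9. Between TR9 and TR1, 2.31% of 15706 genes were called lower and 4.34% higher in TR9. The ratio of a typical gene lay below 0, with medians over all genes of −0.29 in TR1 and −0.12 in TR9, and TMM scaling, which levels the bulk of genes, put this shift at −0.25 and −0.11. Of the genes called in TR1, 61.7% were lower, against 48.4% under TMM scaling and 73.3% with FPKM rescaled as in TPM. Both comparisons with Control share that library.

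Markers of other cell types also differed between the libraries, and each list of them was read in full. Of 10 erythroid markers, all listed, FPKM summed to 2252 in Control, with 8.60 in TR1 and 13.7 in TR9, and Hba-a2 and Alas2 were at 0 in both leukemia libraries. The 7 megakaryocyte and platelet markers summed to 950.4, 2.85 and 1.76, with Pf4 at 0 in both. The 4 promyelocyte markers Elane, Mpo, Prtn3 and Ctsg summed to 4100, 20452 and 23289, and the 9 later granulocyte markers to 86.5, 23228 and 9046. In TR9 against TR1, Mpo was called lower, and Elane, Prtn3 and Ctsg were not called. Of the later granulocyte sum in TR1, S100a8 made 8187.68 and S100a9 12864.3. In TR9 against TR1, 4 of these 9 markers were called lower and 2, Camp and Ngp, higher. The 7 stem and multipotent progenitor markers summed to 194.4, 100.4 and 163.4, with Mecom at 0 in TR1. Its members went both ways, with 5 called lower and 2 higher in TR1 and 3 lower and 1 higher in TR9, among them Cd34 (75.83, 5.80 and 4.34 FPKM) and Ly6a (9.49, 26.90 and 87.64 FPKM). The 6 monocyte and macrophage markers summed to 175.8, 187.2 and 123.6, of which Cd68 made 21.58, 159.24 and 58.72. In each leukemia library 4 of these 6 were called lower and 1, Cd68, higher. Of 6 B cell markers 5 were listed, summing to 12.3, 16.7 and 199.8, of which Igll1 made 194.5 in TR9 while Cd79a and Cd79b were at 0 in both leukemia libraries. The 6 T cell markers summed to 6.88, 169.9 and 84.8, nearly all from Thy1, with Cd3e at 0 in TR1 and Cd3g and Cd2 at 0 in TR9. Their part in the ratios of Bcl2, Bid and Bak1 was not tested.

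Among members above 3 counts, Bcl2 differed most between TR1 and Control and between TR9 and TR1, and Bid differed most between TR9 and Control. Mcl1 and Bcl2l1 were near their Control levels, and the Bcl2a1 genes were given 3 counts or fewer in each library. Among the 10 members, 1 was called lower in TR1 (Bcl2) and 0 higher, against 13.0% and 8.09% of all genes, so the share called was not above that in the table as a whole. In TR9, 2 of the 9 members tested were called lower (Bcl2 and Bid) and 0 higher, against 10.8% and 9.37%. The median log2 ratio over the members was −0.64 in TR1 and −0.57 in TR9. It was −0.29 and −0.23 with the Bcl2a1 genes tested, which had 3 counts or fewer in both libraries, entered as 0. In the plot of FPKM by library, Mcl1 and Bak1 stand highest, and the symbols separate widely for Bcl2 and for Bid.

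**Figure D1:**
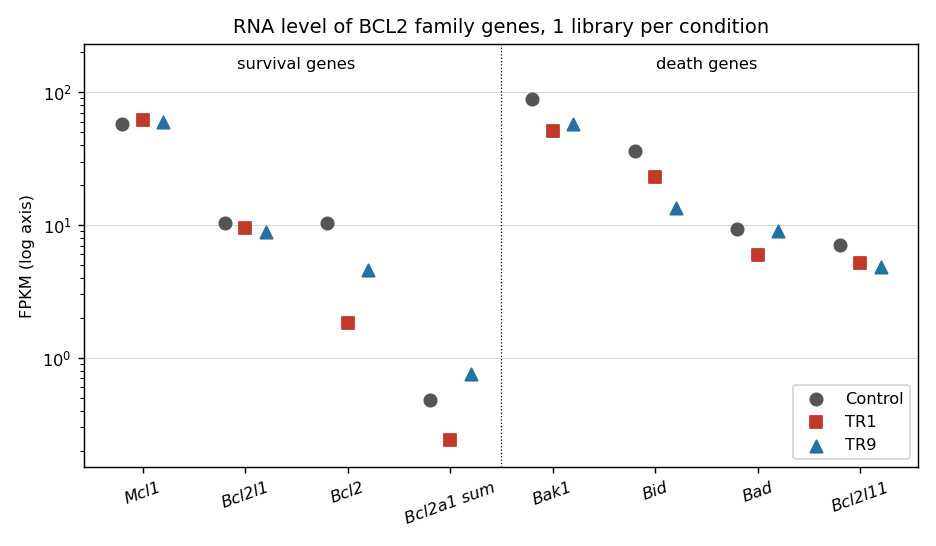
FPKM (log axis) of the BCL2 family genes in Control, TR1 and TR9, 1 symbol per library and without error bars because each condition has 1 library; the Bcl2a1 sum adds the 3 paralogs. Bcl2 goes from 10.42 in Control to 1.84 in TR1 and 4.56 in TR9, whereas Mcl1 stays between 57.42 and 61.80.

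Bcl2, the founding survival gene of the family, had 416.73 expected counts in Control, with 74.96 in TR1 and 170.88 in TR9. These are 10.42, 1.84 and 4.56 FPKM. Control was therefore highest and TR1 lowest, with TR9 between them. In FPKM, Bcl2 was 5.66-fold lower in TR1 than in Control, a log2 ratio of −2.50 (95% interval −2.87 to −2.14). In TR9 it was 2.29-fold lower, a log2 ratio of −1.19 (−1.45 to −0.93). Both leukemia libraries passed the thresholds. In bulk libraries such as these, fewer cells that express Bcl2 and less of its RNA per cell cannot be told apart. Under TMM scaling the log2 ratios were −2.25 and −1.09. The leukemias also differed from each other, since Bcl2 was higher in TR9 than in TR1 by a log2 ratio of 1.31 (0.91 to 1.72). It was the only member called between TR9 and TR1, where 1 of 9 members tested was called higher and 0 lower, against 4.34% and 2.31% of all genes. With the biological coefficient of variation assumed to be 0.2 in edgeR's exact test, Bcl2 was still called in TR1, but neither its ratio in TR9 nor its difference between TR9 and TR1 was called. Bcl2 stood at percentile 56.4 of the listed genes by FPKM in Control, against 31.0 in TR1 and 40.1 in TR9. Of the 50-base windows of its longer transcript, 6.75% also occurred in transcripts of other genes, and its expected counts carry decimals, as they do where RSEM divides reads between genes.

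The 250 bases before the start of Bcl2, at chr1:106714291-106714540 on the minus strand (RefSeq, GRCm38.p6), are shown because Bcl2 was the only member called in all 3 comparisons. The submitters' notes name mm9 for the deposited files, and this sequence was looked up by gene. Capitals mark each match to GGGCGG on either strand, the GC box that Sp1-type factors bind. The capitals are descriptive, and no binding was measured.
Bcl2 promoter: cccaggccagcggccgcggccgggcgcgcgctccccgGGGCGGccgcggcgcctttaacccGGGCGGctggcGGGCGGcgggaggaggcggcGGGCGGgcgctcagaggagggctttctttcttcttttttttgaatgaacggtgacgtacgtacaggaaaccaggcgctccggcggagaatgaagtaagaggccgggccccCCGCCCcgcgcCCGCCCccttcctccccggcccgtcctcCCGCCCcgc
This window held 7 matches, none overlapping another, and 74.8% G or C. Among 32851 promoter windows of the same length, 32.7% had at least 1 match and 0.411% had 7 or more, and the median share of G or C was 52.4%. At least 1 match also occurred in 9 of the 14 windows of the 10 members, Bcl2 included, which belong to 8 members. The letters AGGTCA, the half-site bound by retinoic acid receptors, were searched on both strands as well. They occurred in 14.0% of all windows and in 1 of the 14 windows of the 10 members, which belongs to Bcl2l1. Bcl2 had none in this window.

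Mcl1 encodes a short-lived survival protein. It had 1109 expected counts in Control, with 1215 in TR1 and 1072 in TR9, or 57.42, 61.80 and 59.31 FPKM. The 3 libraries were close, and neither comparison with Control was called. Its log2 ratio was 0.11 (−0.01 to 0.23) in TR1 and 0.05 (−0.07 to 0.17) in TR9, both turning negative with FPKM rescaled as in TPM. Over the scalings tried, the ratio ran from −0.12 to 0.36 in TR1 and from −0.06 to 0.15 in TR9. Mcl1 was above at least 90.6% of listed genes in every library. Bcl2l1 had 134 counts in Control, against 126 in TR1 and 107 in TR9, or 10.29, 9.50 and 8.78 FPKM. Its log2 ratio was −0.12 (−0.47 to 0.25) in TR1, where TMM scaling turned it positive, and −0.23 (−0.61 to 0.15) in TR9. Both intervals span 0, so no difference of Bcl2l1 was detectable at this depth.

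The Bcl2a1 genes of the mouse are near copies of each other on chromosome 9, all encoding the survival protein A1. Their first coding bases are shown as an example of the differences that let a read be given to a single copy. The lines give coding bases 1 to 60 of each in the GRCm38 transcripts of GENCODE M21, with capitals where the 3 copies differ.
Bcl2a1a: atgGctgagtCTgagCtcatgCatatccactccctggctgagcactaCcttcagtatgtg
Bcl2a1b: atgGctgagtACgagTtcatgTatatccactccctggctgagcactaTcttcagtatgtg
Bcl2a1d: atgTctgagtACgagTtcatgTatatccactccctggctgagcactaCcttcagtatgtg
Each coding sequence has 519 bases, and 12 of these positions differ among the copies, 6 of them in the stretch shown. Identity was 97.9% between Bcl2a1a and Bcl2a1b, 98.7% between Bcl2a1a and Bcl2a1d and 98.8% between Bcl2a1b and Bcl2a1d. Along the transcripts, 239 of 770 windows of 50 bases were found in no other gene for Bcl2a1a, 160 of 768 for Bcl2a1b and 167 of 814 for Bcl2a1d. Bcl2a1a had 1 expected count in Control, with 0 in TR1 and 3 in TR9. Bcl2a1b had a single count, in TR1, and Bcl2a1d a single count, in Control. Summed over the paralogs there were 2 counts in Control (exact 95% Poisson interval 0.24 to 7.22), 1 in TR1 (0.03 to 5.57) and 3 in TR9 (0.62 to 8.77). The sums of FPKM were 0.48, 0.24 and 0.76. All were at or under the floor of 3 counts used here, the intervals overlap, and no fold is given. How the authors treated reads that match several places was not tested, and with 69.0%, 79.2% and 79.5% of the windows of Bcl2a1a, Bcl2a1b and Bcl2a1d shared with other genes, these counts may not measure their expression.

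Among the death genes, Bid was called lower in TR9, and the effector gene Bak1 had the highest level and a ratio below 0 in both leukemia libraries without reaching the threshold. Bid, which links death receptors to mitochondria once caspase-8 cleaves its protein, had 374 expected counts in Control, against 246 in TR1 and 131 in TR9. In FPKM these were 35.85, 23.16 and 13.42, so that Control was highest and TR9 lowest. Bid was 2.67-fold lower in TR9 than in Control, a log2 ratio of −1.42 (−1.71 to −1.13), and was not called there with the assumed variation of 0.2. In TR1 the log2 ratio was −0.63 (−0.86 to −0.39), under the threshold. Directly compared, Bid had a log2 ratio of −0.79 (−1.11 to −0.48) in TR9 against TR1, which was not called.

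Bak1 encodes BAK, an effector that sits in the mitochondrial membrane. It had 977 counts in Control, with 569 in TR1 and 595 in TR9, or 88.40, 50.58 and 57.53 FPKM. Control stood above both leukemia libraries, which lay near each other. The log2 ratio was −0.81 (−0.95 to −0.65) in TR1 and −0.62 (−0.77 to −0.47) in TR9, and only the rescaling as in TPM took TR1 past the threshold, at −1.03. Under TMM scaling the ratios were −0.56 and −0.51. Bak1 overlaps Ggnbp1, with which 18.2% of its 50-base windows are shared, and its reads could include some of that gene.

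Bcl2l11 encodes BIM, the BH3-only protein that rises when growth factors are withdrawn. It had 192.73 expected counts in Control, against 143.98 in TR1 and 122.80 in TR9, or 7.12, 5.19 and 4.81 FPKM. Its log2 ratio was −0.46 (−0.77 to −0.13) in TR1 and −0.57 (−0.89 to −0.22) in TR9. Under TMM scaling these ratios were −0.21 and −0.46. The length that RSEM gave to Bcl2l11, a mean over its 3 transcripts weighted by their estimated shares, was 4884.5 bases in Control, with 4917.84 in TR1 and 4922.2 in TR9. Bad, whose protein is held inactive by 14-3-3 proteins while growth factors signal, had 74, 48 and 67 counts, or 9.37, 5.97 and 9.06 FPKM. The log2 ratio of Bad was −0.65 (−1.20 to −0.10) in TR1 and −0.05 (−0.54 to 0.45) in TR9. Under TMM scaling the former was −0.40 and the latter turned positive. Neither Bcl2l11 nor Bad was called in any comparison. Of the 50-base windows of Bad, 33.5% are shared with the overlapping gene Gpr137.

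**Figure D2:**
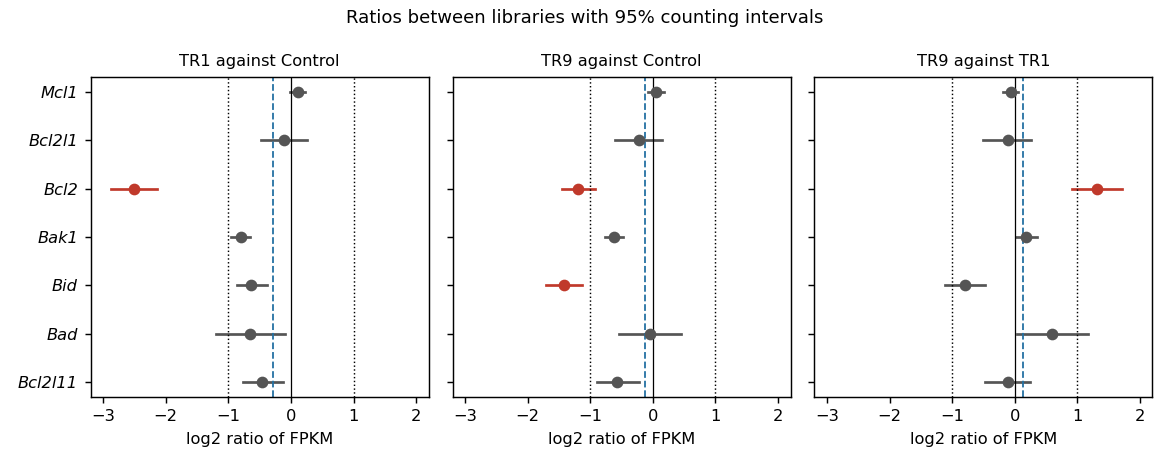
Log2 ratios of FPKM for the 7 members above 3 counts in the 3 comparisons, with bars for the 95% counting interval, red where both thresholds were passed, dotted lines at −1 and 1 and a dashed blue line at the median of all genes. Bcl2 lies at −2.50 in TR1 and −1.19 in TR9 and Bid at −1.42 in TR9, whereas Mcl1 lies within 0.11 of 0 in each.

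Ratios between members within a library do not depend on how the libraries are scaled. The FPKM of Mcl1 was 5.51 times that of Bcl2 in Control (4.92 to 6.18), 33.6 times in TR1 (26.6 to 43.0) and 13.0 times in TR9 (11.1 to 15.4), and the 3 counting intervals do not overlap. Against Bcl2l1, by contrast, Mcl1 was 5.58 times as high in Control, with 6.51 times in TR1 and 6.76 times in TR9, with overlapping intervals. Mcl1 made up 73.0% of the summed FPKM of the 6 survival members in Control, with 84.2% in TR1 and 80.8% in TR9. The share of Bcl2 was 13.3%, 2.51% and 6.21%, and that of Bcl2l1 13.1%, 12.9% and 12.0%.

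The order of the most abundant survival and death genes also differed between the libraries. Bak1 was 1.54 times as high as Mcl1 in Control (1.41 to 1.68), 0.818 times in TR1 (0.740 to 0.905) and 0.970 times in TR9 (0.876 to 1.07), an interval that includes 1. Mcl1 was 1.60 times as high as Bid in Control (1.42 to 1.81), 2.67 times in TR1 and 4.42 times in TR9. Over the 4 death members, FPKM summed to 140.7 in Control, against 84.9 in TR1 and 84.8 in TR9, whereas over the 6 survival members it summed to 78.6, 73.4 and 73.4. The sum over death members was 1.79 times the sum over survival members in Control and 1.16 times in both TR1 and TR9. Bak1 alone made up 62.8%, 59.6% and 67.8% of the sum over death members. These sums leave out family genes that are not members, among them the death genes Bax and Pmaip1 and the survival gene Bcl2l2. A balance over the whole family was not computed. The values are sums of RNA, and amounts of protein were not measured.

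**Figure D3:**
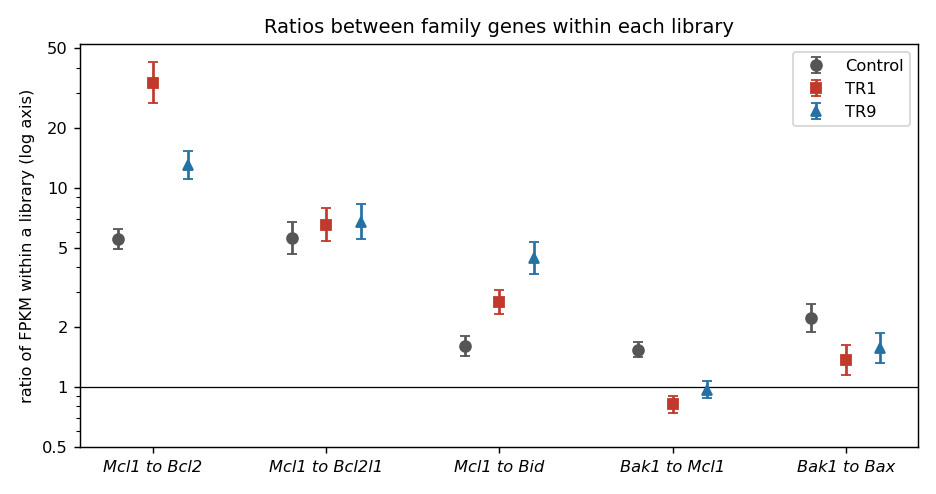
Ratios of FPKM between pairs of family genes within each library (log axis), with bars for the 95% counting interval. The ratio of Mcl1 to Bcl2 is 5.51 in Control, with 33.6 in TR1 and 13.0 in TR9. Bak1 to Mcl1 is 1.54 in Control, with 0.818 in TR1 and 0.970 in TR9, where the interval includes 1.

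**Figure D4:**
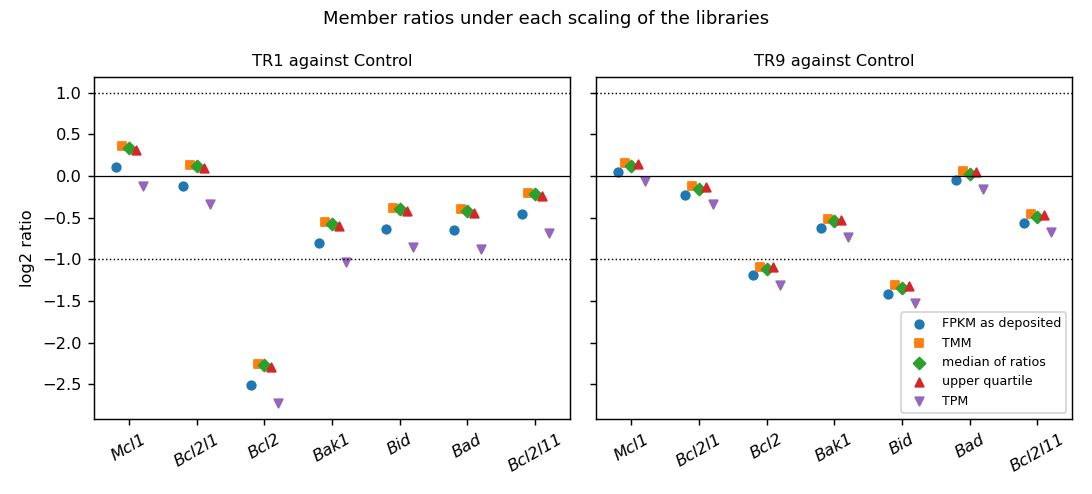
Log2 ratios of 7 members against Control with FPKM as deposited and under 4 other scalings of the libraries, with dotted lines at −1 and 1. Bcl2 stays between −2.73 and −2.25 in TR1 and between −1.30 and −1.09 in TR9, whereas Mcl1, Bcl2l1 and Bad lie on both sides of 0 in 1 or both comparisons.

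Other genes of the BCL2 family were taken from a list of 17, of which 15 were listed in a library. Pmaip1 and Bnip3 were called higher in each leukemia library. In TR1, 2 of the 15 were called lower (Bcl2l12 and Bcl2l13) and 2 higher, and in TR9 0 were called lower and 4 higher, with Bcl2l2 and Bmf beside the other two. Over all genes, 13.0% were called lower and 8.09% higher in TR1, and 10.8% and 9.37% in TR9. The median over the list was −0.34 (log2) in TR1 and −0.12 in TR9, against −0.29 and −0.12 over all genes. It was 0 in each with Bcl2a1c, Bok, Hrk and Bik, which have no bound, entered as 0. Any other gene with a count of 3 or fewer was placed at its bound. That median of 0 is an entered value, not a measured one. Pmaip1 encodes NOXA, a BH3-only protein that binds MCL1 and promotes its breakdown. It had 14.97 expected counts in Control, against 151 in TR1 and 51 in TR9, or 1.02, 10.16 and 3.73 FPKM. TR1 was highest and Control lowest. Its log2 ratio was 3.32 (2.54 to 4.18) in TR1 and 1.87 (1.01 to 2.80) in TR9, and it was lower in TR9 than in TR1 by a log2 ratio of −1.45 (−1.93 to −0.98). In FPKM, Pmaip1 was 9.96-fold higher in TR1 and 3.66-fold higher in TR9 than in Control.

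Bmf, a BH3-only gene tied to the cytoskeleton, had 6 counts in Control, with 23 in TR1 and 42 in TR9. Its log2 ratio was 1.94 (0.58 to 3.50) in TR1, not called, and 2.92 (1.66 to 4.43) in TR9. Bcl2l2, a survival gene that encodes BCL-W, had 4.85 FPKM in Control, against 7.47 in TR1 and 11.86 in TR9, with log2 ratios of 0.62 (0.24 to 1.02) and 1.29 (0.94 to 1.66), of which the latter was called. Its level in TR9 was above that of Bcl2 and Bcl2l1 in the same library, at 4.56 and 8.78 FPKM. Bnip3, a mitophagy gene with a BH3-like region, had log2 ratios of 1.20 (0.81 to 1.60) and 1.30 (0.91 to 1.71), and in TR1 it was not called with FPKM rescaled as in TPM. Its relative Bnip3l had the highest mean FPKM of the list, with 41.60, 37.35 and 55.11, and was not called.

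The other effector gene, Bax, differed little between the libraries, with 40.02 FPKM in Control, against 36.99 in TR1 and 36.79 in TR9. The log2 ratios of Bax were −0.11 for TR1 and −0.12 for TR9, and Bak1 was 2.21 times as high as Bax in Control (1.89 to 2.60), 1.37 times in TR1 (1.15 to 1.63) and 1.56 times in TR9 (1.31 to 1.87). Bbc3, which encodes the p53-induced BH3-only protein PUMA, had 3.98, 2.54 and 2.17 FPKM and was not called. Of the less studied relatives, Bcl2l13 had log2 ratios of −1.40 in TR1, called, and −0.71 in TR9, and Bcl2l12 −1.03 in TR1, which TMM scaling took out of the calls, and −0.51 in TR9. Bcl2a1c, Bok, Hrk and Bik had at most 3 counts in any library, and Bcl2l14 and Bcl2l15 at most 11, and none of these was called.

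Downstream of the family, Apaf1 was called higher and Birc5 lower in each leukemia library. Of 12 genes of the apoptosome, caspases and their inhibitors, 2 were called lower and 1 higher in TR1, and 1 lower and 1 higher in TR9, beside 13.0% and 8.09% of all genes in TR1 and 10.8% and 9.37% in TR9. The list's median was −0.43 in TR1 and −0.11 in TR9, where that of all genes was −0.29 and −0.12. Apaf1, the scaffold of the apoptosome, was higher, with 14.42, 33.70 and 30.72 FPKM and log2 ratios of 1.22 (1.08 to 1.38) and 1.09 (0.94 to 1.25), both just under 1 with FPKM rescaled as in TPM. Birc5, which encodes survivin and is also a gene of mitosis, had 113.7, 44.9 and 49.0 FPKM and log2 ratios of −1.34 and −1.21. Casp6 was called lower in TR1, at −1.34 (−1.85 to −0.85), and had a log2 ratio of 0.18 (−0.19 to 0.55) in TR9. Cycs, cytochrome c, had the highest mean FPKM of the list, with 87.34, 61.17 and 84.71 in Control, TR1 and TR9, and was not called.

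Upstream of Bid, Fas, Tnfrsf1a and Tnf of the death receptor chain were called higher in each leukemia library. Of 12 genes, 3 were called higher and 2 lower in TR1, and 4 higher and 1 lower in TR9, with medians of 0.26 and 0.36. The shares of all genes were 8.09% higher and 13.0% lower in TR1 and 9.37% higher and 10.8% lower in TR9, with medians of −0.29 and −0.12. Fas, the receptor of FAS ligand, had 2 counts in Control, with 69 in TR1 and 77 in TR9. With Control set to a floor of 3 counts, Fas was 22.7-fold higher in TR1 and 27.5-fold higher in TR9. These folds are not lower limits, since the exact Poisson interval for 2 counts, given above for the Bcl2a1 sum, reaches 7.22. Tnfrsf1a, a receptor of TNF and the most abundant gene of the list, had 21.34, 62.41 and 67.35 FPKM, with log2 ratios of 1.55 (1.35 to 1.76) and 1.66 (1.45 to 1.87). Tnf itself had 12, 68 and 62 counts, and its log2 ratios were 2.47 (1.58 to 3.50) and 2.46 (1.56 to 3.49). Cflar, which encodes the caspase-8 inhibitor FLIP, had a log2 ratio of 0.75 in TR1, not called, and 1.24 (1.06 to 1.41) in TR9. Casp8 had 25.26, 17.43 and 21.11 FPKM and was not called. Tnfsf10, the gene of TRAIL, was called lower in TR1, at −1.03 (−1.46 to −0.59), though not under TMM scaling, where it was −0.78. Gzmb, which encodes granzyme B, had 13 counts in Control and 0 in both leukemia libraries, which passed the thresholds with FPKM as deposited and not under TMM scaling. Fasl had 1 count, in Control. With the assumed variation of 0.2, Fas and Tnf were the genes of the 4 lists still called in both leukemia libraries.

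Genes that bind the members or set their stability mostly had ratios below 0 without being called. Of 19 listed genes, 4 were called lower and 0 higher in TR1, and 3 lower and 1 higher in TR9, with medians of −0.60 in each. Most genes of the whole table also lay below 0, with medians of −0.29 and −0.12, and 13.0% of them were called lower in TR1 and 10.8% in TR9. Mtch2, the mitochondrial receptor of truncated BID, had 37.07, 10.41 and 11.65 FPKM and log2 ratios of −1.83 (−2.11 to −1.55) and −1.67 (−1.95 to −1.40). Foxo3, a transcription factor known to drive Bcl2l11 and Bbc3, had 19.79, 6.60 and 9.06 FPKM and log2 ratios of −1.58 (−1.91 to −1.26) and −1.13 (−1.43 to −0.83). Vdac3 was called in both comparisons and Vdac1 in TR1, but under TMM scaling neither was called. Vdac2, the channel that holds BAK in the membrane, had 141.7, 105.7 and 107.6 FPKM and was not called. Sfn, a 14-3-3 gene, had 21, 51 and 50 counts and log2 ratios of 1.25 in TR1, not called, and 1.35 in TR9, called except with FPKM rescaled as in TPM (1.24), with the assumed variation of 0.2 and at a log2 threshold of 2. Ywhae, another 14-3-3 gene and the most abundant of the list, had 444.9, 297.1 and 294.3 FPKM and was not called. The enzymes that remove or add ubiquitin on MCL1, from Usp9x, Huwe1, Fbxw7 and Btrc, had log2 ratios between −0.72 and −0.32 in the 2 comparisons, and none was called.

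**Figure D5:**
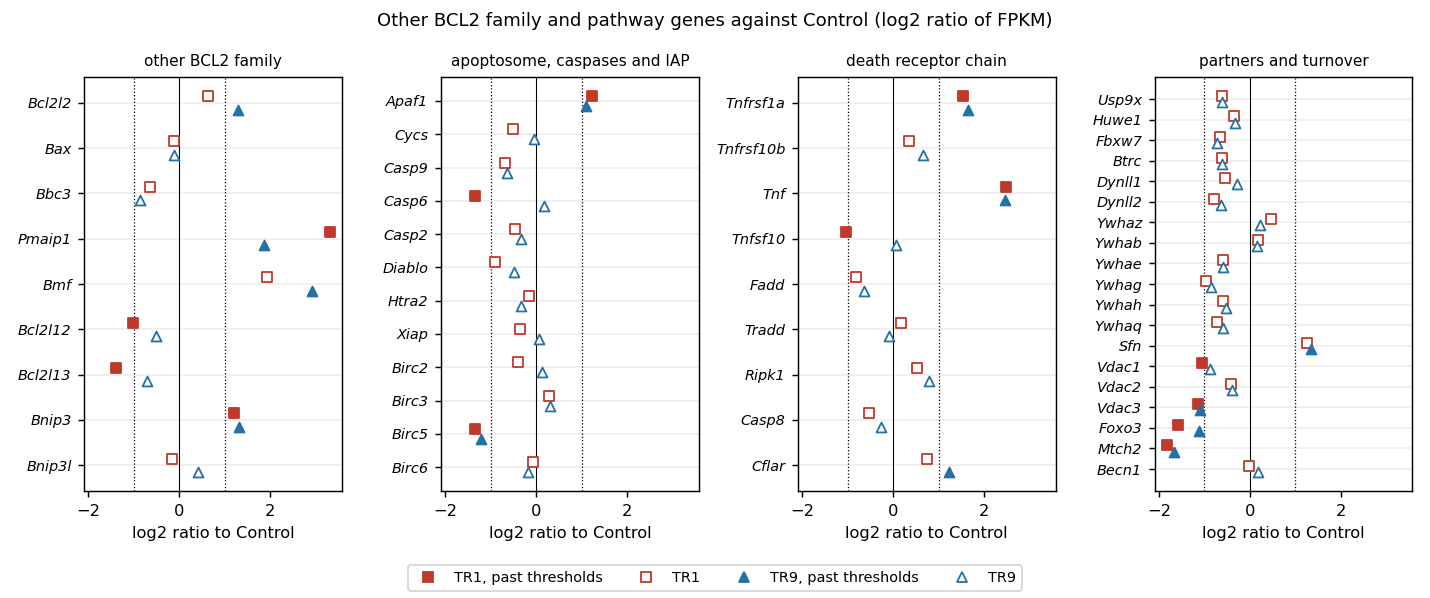
Log2 ratios of FPKM against Control for 49 genes of the 4 lists that had more than 3 counts in every library, with red squares for TR1, blue triangles for TR9, filled symbols where both thresholds were passed and dotted lines at −1 and 1. Mtch2 lies at −1.83 and −1.67, and Pmaip1, Tnf and Tnfrsf1a lie above 1 in both libraries, which share the Control library.

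The genes nearest to a member, by Euclidean distance over the 3 log2 FPKM values, were found among all listed genes. For Bcl2 they were P2rx4, Wdsub1 and Tgfbr2, at distances of 0.31 each. P2rx4, for example, had 10.89 FPKM in Control, against 2.25 in TR1 and 4.79 in TR9. For Mcl1 the nearest were Frg1, Ctdnep1 and Nabp2, at distances of 0.07 to 0.10. For Bcl2l1 they were C87436, Pknox1 and Dhodh, at 0.07 to 0.09. Over 3 libraries many genes lie close to any flat pattern. The Bcl2a1 sum was not used because its counts were at or under the floor.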

How the data were processed

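RNA-seq of 3 libraries was used, 1 per condition and each of 3 pooled mice. Reads had been cleaned, aligned (BWA, Bowtie) and quantified (RSEM) by the authors, and the submitters' processing notes name mm9. They deposited an expected count for each gene, not normalized and not always whole, the FPKM scaled by RSEM for length and library total, and the gene length. Software versions and strand are not given in the sources used here. Gene IDs were matched to RefSeq symbols (GRCm38.p6), 16698 of 16742.

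Expected counts were rounded and compared across all genes with an exact Poisson test conditional on their sum (doubled smaller tail, scipy 1.17.1), adjusted by Benjamini-Hochberg, and FPKM under 0.01 were set to 0.01. The thresholds were those of the study's methods. Alternatives were other floors, pseudocounts, minimum values, thresholds and scalings (TMM, median of ratios, upper quartile, TPM, totals), the Bcl2a1 sum, and the exact test of edgeR 4.0.16 (R 4.3.3). The members and lists, and the rule for named genes (every member, all other family genes, and in each list the genes called in both leukemias or between them, the most abundant, and the 3 genes nearest to a survival member), were chosen with earlier results of these data known. Other named genes of the lists (Casp8, Cflar, Sfn, Vdac1, Vdac2, Fasl, Usp9x, Huwe1, Fbxw7 and Btrc) were picked with their values in view. The steps were tested on simulated data. Of 200 genes changed by a log2 ratio of 2 among 16282, the test between TR1 and Control recovered 194. The simulated counts were Poisson draws, the model of the test itself, so they held no variation between mice. Only genes above a minimum count were changed, which the Bcl2a1 genes did not reach. The recovery thus shows that the steps run as written, not how the test performs on real libraries. Depth limits the precision through the intervals given. The TR transgene was not analysed here, and some genes of the lists are not reported here and were left out of their counts.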

Additional observations from a re-analysis of the deposited data

Results flagged for a closer look

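The ratios to Control differed between the 2 leukemias for 4 of the 64 members and list genes tested in the direct comparison of TR9 with TR1, 1 lower and 3 higher in TR9, beside 2.31% lower and 4.34% higher over all genes. That comparison tests reads of 2 libraries and has no replicates. Bcl2 was higher in TR9, by a log2 ratio of 1.31. Pmaip1 was lower in TR9, by −1.45. Casp6, a caspase, was higher in TR9 by 1.52 (95% counting interval 1.03 to 2.02), with 122 expected counts in Control, against 49 in TR1 and 129 in TR9. Tnfsf10 was higher in TR9 by 1.09 (0.64 to 1.52), with 135.5 counts in Control, against 67.5 in TR1 and 131.8 in TR9. With the biological variation assumed to be 0.2 in edgeR's exact test, none of these 4 was called, and under TMM scaling Tnfsf10 was at 0.95 and not called.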

How the results depend on the processing

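No paired analysis was possible because each condition has 1 library. Bcl2 was called in TR1 under all 13 alternatives. Some of these could not have removed the call, namely the lower FPKM floor, the minimum values, the relaxed false discovery rate and the Bcl2a1 sum. The number of members called in TR1 changed only with FPKM rescaled as in TPM, to 2, when Bak1 was added at −1.03. In TR9 against Control, the 2 calls went to 0 with edgeR's exact test at an assumed variation of 0.2 and to 0 with an absolute log2 ratio of at least 2. Between TR9 and TR1, the call of Bcl2 went to 0 under those 2 settings and with a pseudocount of 1 FPKM, where its log2 ratio was 0.97. The log2 threshold of 2 raises the bar and the pseudocount shrinks the ratio. The assumed variation adds a spread between samples that the Poisson test leaves out, so the lost calls allow for counting error only. Among members, signs turned only for uncalled ones near 0. Over all genes, calls lower and higher went from 2120 and 1317 to 992 and 657 (assumed variation) or 1133 and 685 (log2 ratio of 2) in TR1, from 1766 and 1527 to 830 and 717 or 928 and 737 in TR9, and from 363 and 681 to 94 and 188 or 135 and 283 between TR9 and TR1. In TR1, Bcl2l1 was at 0.13 (TMM), 0.12 (median of ratios) and 0.10 (upper quartile), and Mcl1 at −0.12 as in TPM. In TR9, Bad was at 0.058 (TMM), 0.0276 (median of ratios) and 0.0495 (upper quartile), and Mcl1 at −0.0623 as in TPM. Between TR9 and TR1 as in TPM, Bcl2l1 was at 0.00262, Mcl1 at 0.057 and Bcl2l11 at 0.00663. The alternatives for genes of the other lists were chosen after seeing the data. Depth limits the Bcl2a1 genes most, since a change among 1 to 3 counts could not be detected.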
